A study of Mus musculus with 19 samples.

Results

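Cholesterol synthesis enzymes, the regulators of the transcription factor SREBP2 and a few genes of cholesterol handling were followed across the livers of 19 mice. The set lists 27 genes, chosen by their roles in the pathway with earlier results of these data known, and 24 of them had a probe set annotated to 1 gene, out of 22180 genes measured that way. Acat2 and Soat2 were not among the annotated symbols used here, and the 1 probe set of Idi1 carries a second symbol, so that none of these 3 was given a value. Where a gene had more than 1 probe set, as Scap and Npc1 did, the one with the highest mean was used. RNA from whole liver was hybridised to 1 Affymetrix array per animal, and every value is a level on the log2 scale.

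The livers fell into 6 groups by genotype code and diet: KO on a high-fat diet (HFD, n = 3), KO on a normal diet (ND, n = 3), TG on HFD (n = 4), TG on ND (n = 3), WT on HFD (n = 3) and WT on ND (n = 3). All mice were 2 to 3 months old and had been on their diet for 4 weeks. The series concerns Kcp, a secreted modulator of BMP and TGF-beta signalling, but the meaning of the 3 genotype codes is not given in the sources used here, nor are the strain, the sex, the deleted part of the gene and the promoter that drives the transgene. Kcp averaged 2.01 ± 0.14 in KO HFD and 2.03 ± 0.34 in KO ND livers, 5.66 ± 0.13 in TG HFD and 5.56 ± 0.19 in TG ND livers, and 2.23 ± 0.40 in WT HFD and 2.55 ± 0.23 in WT ND livers (SD). KO did not pass against WT on either diet (adjusted p = 0.215 on ND and 0.844 on HFD). Its single probe set cannot check the KO label, since its place relative to the deletion is not known here. Only an animal number in each title says that replicates are separate animals, and p-values set each difference against the spread between these samples within groups.

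Cells make cholesterol from acetyl-CoA through mevalonate, farnesyl diphosphate, squalene and lanosterol, and the liver is a major site of this synthesis. The genes of most steps are switched on together by SREBP2, a membrane-bound transcription factor made from Srebf2. When sterols are low, SCAP carries SREBP2 from the endoplasmic reticulum to the Golgi, where it is cut and released to the nucleus. When sterols are high, the INSIG proteins hold SCAP back, and Insig1 is itself a SREBP target.

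Upstream sequences were available for 21 of the 27 genes, as 27 annotated starts with 250 bases before and 50 after each, from RefSeq on the build GRCm38.p6. Of these 21 genes 19 carry a CCAAT box, the recognition sequence of NF-Y, which works beside SREBPs, on either strand in at least 1 such window (90.5%, against 41.1% of all 27025 genes with a window). A GC box, GGGCGG on either strand, is also found in 19 (90.5%, against 38.2%). The sterol regulatory element in the form TCACNCCAC, read on both strands, is found in 1 of the 21, Hmgcs1, where it starts 137 bases before the annotated start (4.76%, against 1.44% of all genes). A match is a description of letters and not a binding site, and these motifs do not overlap one another in the Hmgcs1 window. The windows of 5 members on which the results below turn are shown, 5′ to 3′ along the gene, with CCAAT boxes of either strand and the TCACNCCAC match in capitals; of the 3 annotated starts of Insig2 the one shown is the farthest upstream.
Hmgcs1, chr13:119690101-119690400, plus strand: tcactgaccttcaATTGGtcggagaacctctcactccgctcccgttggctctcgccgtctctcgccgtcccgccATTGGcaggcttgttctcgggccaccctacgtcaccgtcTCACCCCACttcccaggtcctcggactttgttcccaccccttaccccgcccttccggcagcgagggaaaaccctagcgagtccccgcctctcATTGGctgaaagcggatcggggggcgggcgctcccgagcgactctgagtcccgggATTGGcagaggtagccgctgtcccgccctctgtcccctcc
Msmo1, chr8:64733529-64733828, minus strand: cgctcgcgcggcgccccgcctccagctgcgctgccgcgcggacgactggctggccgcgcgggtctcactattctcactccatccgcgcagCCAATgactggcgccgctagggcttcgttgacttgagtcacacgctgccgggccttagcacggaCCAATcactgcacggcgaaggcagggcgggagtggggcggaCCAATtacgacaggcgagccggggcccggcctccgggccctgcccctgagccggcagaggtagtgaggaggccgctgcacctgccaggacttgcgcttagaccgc
Srebf2, chr15:82147019-82147318, plus strand: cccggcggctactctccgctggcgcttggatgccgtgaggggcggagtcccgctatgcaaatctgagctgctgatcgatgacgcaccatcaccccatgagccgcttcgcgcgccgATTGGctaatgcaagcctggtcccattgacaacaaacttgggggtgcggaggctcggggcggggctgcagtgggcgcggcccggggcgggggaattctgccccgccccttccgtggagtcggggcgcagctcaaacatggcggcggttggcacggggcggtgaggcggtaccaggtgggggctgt
Insig1, chr5:28071162-28071461, plus strand: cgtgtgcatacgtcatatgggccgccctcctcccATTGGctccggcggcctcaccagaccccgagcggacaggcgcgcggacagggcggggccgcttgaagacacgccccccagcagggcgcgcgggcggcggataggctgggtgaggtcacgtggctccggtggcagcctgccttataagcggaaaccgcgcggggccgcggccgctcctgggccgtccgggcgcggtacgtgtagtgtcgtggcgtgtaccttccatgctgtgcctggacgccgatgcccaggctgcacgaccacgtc
Insig2, chr1:121332540-121332839, minus strand: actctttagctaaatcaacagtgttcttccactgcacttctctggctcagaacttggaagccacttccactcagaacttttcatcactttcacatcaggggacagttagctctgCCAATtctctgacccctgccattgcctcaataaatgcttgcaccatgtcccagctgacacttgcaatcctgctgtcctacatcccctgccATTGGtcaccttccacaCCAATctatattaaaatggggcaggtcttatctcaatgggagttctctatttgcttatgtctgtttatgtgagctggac
Hmgcs1 holds 4 CCAAT boxes, Msmo1 and the upstream start of Insig2 3 each, and Srebf2 and Insig1 1 each. The other 2 annotated starts of Insig2 hold none, and the array does not say which start a transcript came from.

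All livers had high levels of 7 hepatocyte markers, whose mean per liver lay between 10.06 and 10.25. In bulk tissue, fewer cells of a type and less RNA per cell cannot be told apart. WT HFD replicate 1 and TG HFD replicate 2 had the lowest mean correlations with the livers of other groups, 0.9633 and 0.9651 across all probe sets, and the 4 neutrophil markers averaged 2.20 in TG HFD replicate 2, against 0.41 to 0.92 in the 18 other livers. The members varied more than most genes: the range of their 6 group means had a median of 1.08, against 0.36 over all genes, and their spread within groups a median SD of 0.41, against 0.21. Differences were tested in 1 limma model of all 19 arrays, and a gene is said to have risen or fallen where the p-value adjusted by Benjamini-Hochberg over all 22180 genes was under 0.05; values in parentheses after a gene are log2 differences with their standard error (SE).

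KO and TG livers on ND held most of the extremes. KO livers on ND had the lowest group mean for 18 of the 24 members, 14 of them among the 17 enzymes, and TG livers on ND the highest for 15, of which 12 were enzymes. In the map of all members by liver, the mean of the 17 centred enzyme levels lay between -0.69 and -0.51 in KO ND livers, between 0.26 and 0.76 in TG ND livers, and between -0.57 and 0.12 in WT ND livers. All 17 enzymes were above their 19-liver mean in TG ND replicates 1 and 2, and 10 were in replicate 3. None was in KO ND replicates 2 and 3, and 1 was in replicate 1.

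**Figure D1:**
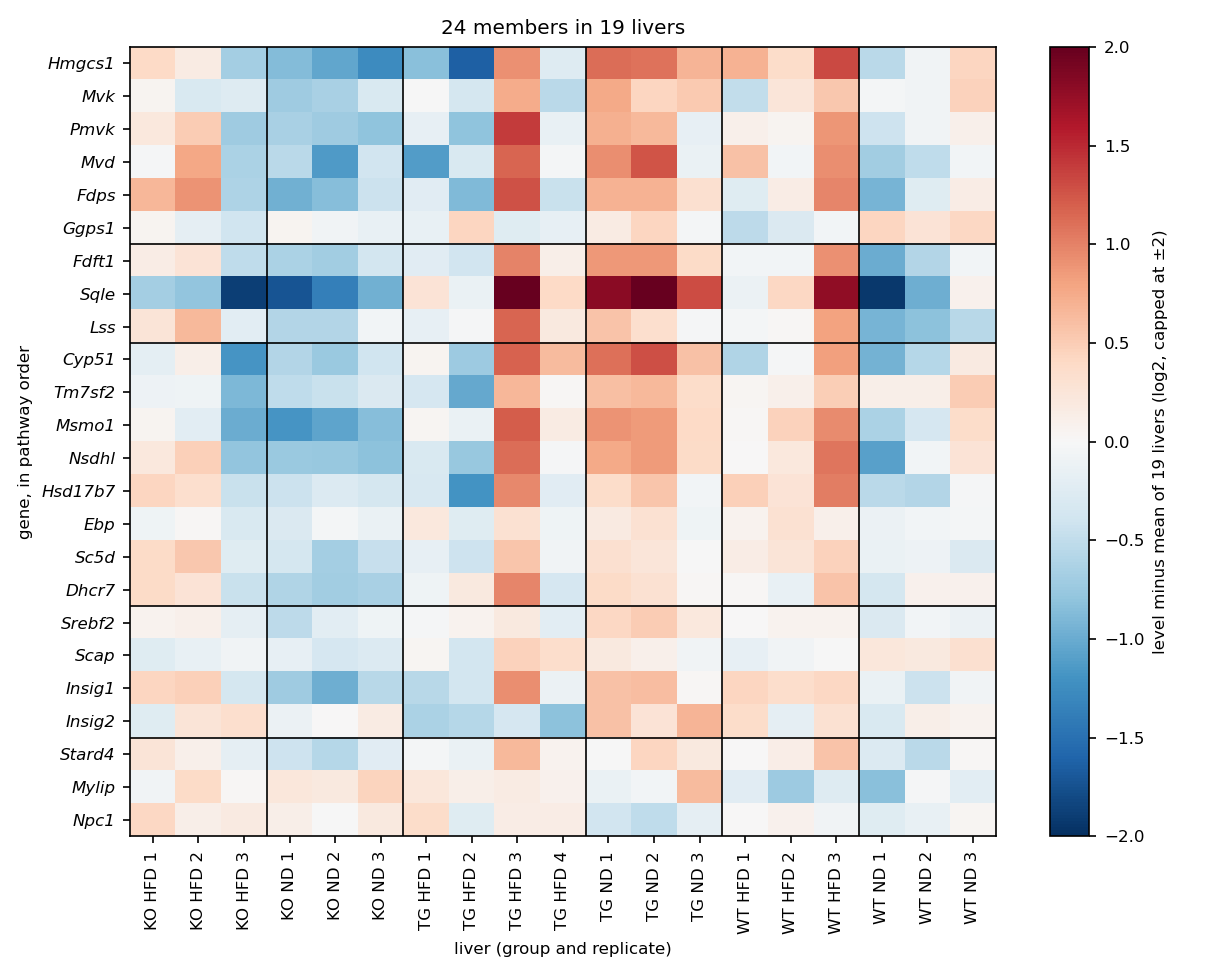
Level of each of 24 members in each of 19 livers, minus the gene's mean over all livers (colour, log2, capped at ±2), with genes in pathway order down the page and livers by group across. Lines separate groups and roles; the KO ND columns are mostly blue, the TG ND columns mostly red, and TG HFD replicate 3 is redder than the other livers of its group.

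KO and TG livers on ND were compared first, since these groups lay farthest apart. Of the 24 members 7 fell and none rose in KO against TG on ND (29.2%), where 4.2% of all genes passed in either direction and 2.49% as lower. The median difference of the 24 was -0.92, against 0.00 over all genes, and the livers of both groups did not overlap for 20 members that were lower in KO and 1 that was higher (background 11.1% and 10.1%). The choice of these groups, as the extremes of the 6, was made with the values known.

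In the mevalonate part, Hmgcs1, the enzyme that makes HMG-CoA, had levels of 7.93, 7.76 and 7.55 in KO ND livers, against 9.92, 9.89 and 9.48 in TG ND livers. The groups were more than 1.5 apart at their nearest, and the fall was 2.02 on the log2 scale (SE 0.45, adjusted p = 0.0134). Mvk, mevalonate kinase, had 3.48, 3.54 and 3.89 in KO ND livers, against 4.95, 4.62 and 4.72 in TG ND livers, and fell by 1.13 (SE 0.28, adjusted p = 0.0274). The later steps Pmvk (-1.12), Mvd (-1.37) and Fdps (-1.32), which phosphorylate phosphomevalonate, form isopentenyl diphosphate and join isoprenoid units into farnesyl diphosphate, did not pass (adjusted p = 0.177, 0.132 and 0.144). No liver of KO ND reached the lowest TG ND liver for any of those 3. Ggps1, which diverts farnesyl diphosphate to geranylgeranyl diphosphate, differed by -0.24 (SE 0.18, adjusted p = 0.606), and its livers overlapped.

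At the entry to sterol synthesis, Sqle, squalene epoxidase, showed the largest difference of any member. Its levels were 3.18, 3.55 and 3.95 in KO ND livers, against 6.72, 7.01 and 6.23 in TG ND livers, a fall of 3.09 (SE 0.60, adjusted p = 0.00507), so that the KO ND level was 0.118 times that of TG ND. Fdft1, squalene synthase, had 7.26, 7.21 and 7.53 in KO ND livers, against 8.76, 8.76 and 8.28 in TG ND livers, and fell by 1.27 (SE 0.33, adjusted p = 0.0349). Both genes were separated between the groups. Lss, lanosterol synthase, was at -0.70 (SE 0.31, adjusted p = 0.277).

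Among the 8 enzymes that turn lanosterol into cholesterol, Msmo1, a C4 methylsterol oxidase, had 4.79, 4.92 and 5.12 in KO ND livers, against 6.86, 6.81 and 6.37 in TG ND livers. Every KO liver was more than 1 below every TG liver, and the fall was 1.74 (SE 0.34, adjusted p = 0.00507). Cyp51, the lanosterol demethylase (-1.57, SE 0.44), just missed the threshold (adjusted p = 0.0502). The remaining 6 had differences of -1.43 (Nsdhl), -0.96 (Tm7sf2), -0.89 (Dhcr7), -0.68 (Sc5d), -0.65 (Hsd17b7) and -0.29 (Ebp), with adjusted p-values of 0.0674 to 0.459. Ebp, the sterol isomerase, was the 1 of the 8 whose livers overlapped.

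Both Srebf2 and Insig1 moved with the enzymes. Srebf2 had 5.65, 5.97 and 6.10 in KO ND livers, against 6.59, 6.69 and 6.39 in TG ND livers, and fell by 0.65 (SE 0.14, adjusted p = 0.00929), with no overlap. Insig1 had 8.79, 8.54 and 8.95 in KO ND livers, against 10.09, 10.13 and 9.53 in TG ND livers, and fell by 1.16 (SE 0.30, adjusted p = 0.0308). Scap (-0.33) and Insig2 (-0.49), whose products retain or escort SREBP2, did not pass (adjusted p = 0.340 and 0.184).

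**Figure D2:**
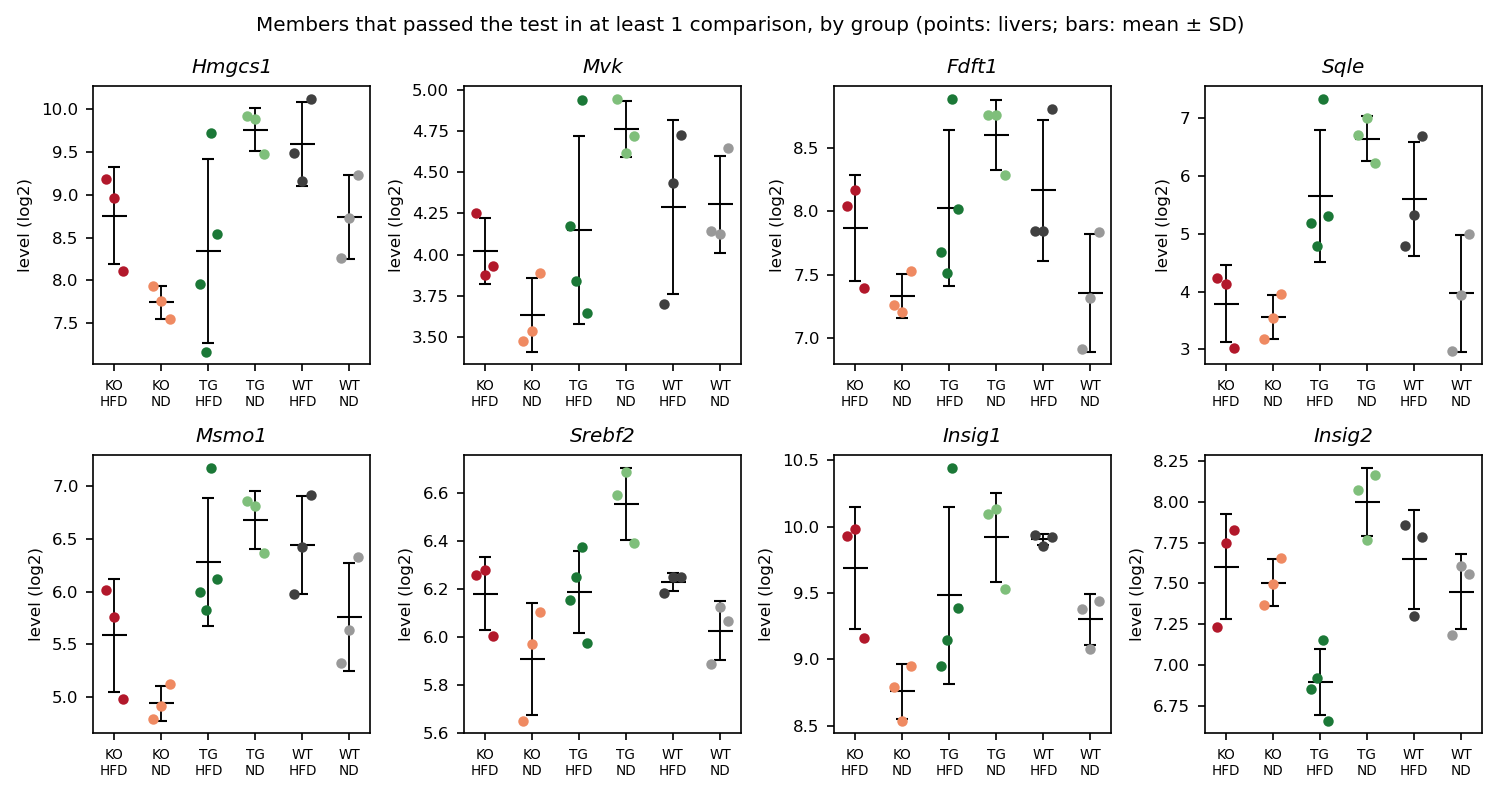
Log2 level of the 8 members that passed the test in at least 1 comparison; each point is a liver, bars give the group mean and SD, and the panels have their own vertical scales. Orange KO ND points lie below pale green TG ND points in all 8 panels, and in the Insig2 panel the 4 TG HFD livers lie below the other 15.

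Sqle and Msmo1 kept their calls when any 1 of the 6 livers was left out, while Srebf2 lost its call without 2 of them, Hmgcs1 without 3, and Mvk, Fdft1 and Insig1 without 5 (highest adjusted p 0.0531 to 0.135). The number of members called was 3, 4 and 4 without KO ND replicates 1, 2 and 3, and 3, 2 and 6 without TG ND replicates 1, 2 and 3. Clock genes moved with this comparison. A clock score, the mean of 8 measured genes that peak towards evening minus that of 5 that peak towards morning, lay between 1.43 and 1.77 in KO ND livers, against -1.82 to -1.26 in TG ND livers, with 6 of 8 evening genes higher, 1 lower and 3 of 5 morning genes lower. With the score as a covariate none of the 24 members passed, while the 7 differences lay between -4.91 and -0.61 (adjusted p 0.397 to 0.851). The score did not overlap between the groups, and the part of the clock genes in the result was not tested.

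Other cell and state markers also moved. Of 11 macrophage markers 10 were lower in KO against TG on ND, with a mean level of 4.40 to 5.04 in KO ND livers, against 6.01 to 6.53 in TG ND livers. Of 6 stellate cell markers 2 were lower, Reln (-0.62) and Pdgfrb (-0.86), and of 5 T and NK cell markers 1, Cd3g (-1.36), while 3 of 4 endothelial markers were lower without overlap and none passed. Of 4 cholangiocyte markers 1 was lower, Sox9 (-1.92), and the median of the 4 was -0.04. Of 4 adipocyte markers 1 was higher, Cidea (3.29), while the other 3 had negative differences, the lowest at -0.15. The part of these cell markers in the result was not tested. Among 6 genes that rise on fasting, Pck1 (0.72), of glucose synthesis, and Cpt1a (0.70), of mitochondrial fatty acid uptake, rose. Of the others 2 had negative differences, the lowest at -0.51 for Pdk4. The mean of the 6 was 6.44 to 6.73 in KO ND livers, against 6.17 to 6.36 in TG ND livers. The 9 lipogenic genes, targets of the related factor SREBP1, had none that passed in this comparison by limma, and 5 of them were higher in every KO ND liver than in every TG ND liver (background 10.1%), at a mean of 8.55 to 9.14 in KO ND livers, against 8.11 to 8.44 in TG ND livers. At an unadjusted p under 0.05 the members showed 18 lower and 1 higher (background 8.51% and 6.57%).

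Each genotype was also set against WT on ND; both comparisons share the WT ND livers and are given side by side. In TG against WT, 1 of 24 members rose and none fell (background 1.3% in either direction, 0.924% as higher and 0.379% as lower), 12 were higher and none lower at an unadjusted p under 0.05 (9.97% in either direction, 5.3% as higher), with a median difference of 0.54. That gene was Sqle, with 6.72, 7.01 and 6.23 in TG ND livers, against 2.98, 3.94 and 4.99 in WT ND livers (2.68, SE 0.60, adjusted p = 0.0304). The WT livers spanned more than 2 units, wider than any other ND group, and the call was lost without 5 of the 6 livers, all but WT ND replicate 3 (highest adjusted p 0.146, without WT ND replicate 1). Fdft1 (1.25, adjusted p = 0.0804), Srebf2 (0.53, adjusted p = 0.0728), Lss (1.06, adjusted p = 0.122) and Cyp51 (1.44, adjusted p = 0.151) came next and did not pass. The livers did not overlap for 12 members that were higher and 1 that was lower in TG (background 8.14% and 7.62%). Macrophage markers, with 11 of 11 higher in TG, stood beside these values, at a mean of 6.01 to 6.53 in TG ND livers, against 4.51 to 4.61 in WT ND livers. Of 6 stellate cell markers 2 were also higher, Reln (0.47) and Dcn (0.61), and 3 of 4 endothelial markers were higher without overlap, of which none passed. The part of these markers was not tested. The clock score lay between -1.82 and -1.26 in TG ND livers, within the range of -1.99 to 0.07 of WT ND livers.

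In KO against WT on ND, none of the 24 members passed in limma (background 2.98% in either direction, 1.38% as higher and 1.6% as lower), and 7 were lower and 1 higher at an unadjusted p under 0.05 (background 7.2% and 6.06%). Their median difference was -0.36, and 10 were lower and 1 higher without overlap (background 9.27% and 8.83%). Scap had 6.73, 6.55 and 6.62 in KO ND livers, against 7.11, 7.09 and 7.20 in WT ND livers (-0.50, SE 0.16, adjusted p = 0.115). Its WT values were close together and above every KO value. Msmo1 (-0.82) and Mvk (-0.67) did not overlap either and had adjusted p-values of 0.272 and 0.287, as did Hmgcs1, at a mean of 7.75 in KO ND and 8.74 in WT ND livers (adjusted p = 0.341). In the squalene part the differences were -0.41 for Sqle, -0.02 for Fdft1 and 0.36 for Lss (adjusted p 0.721 to 0.988), and all 3 overlapped. The clock score, at 1.43 to 1.77 in KO ND livers, against -1.99 to 0.07 in WT ND livers, moved with this comparison, and with it as a covariate none passed either. Of the 6 fasting genes 1 rose, Pck1 (0.91), and 5 were higher without overlap, with a median difference of 0.69. Of the 9 lipogenic genes 5 were higher without overlap and none passed, with a median of 0.54. Of 4 cholangiocyte markers 1 was lower, Sox9 (-1.69), and the median of the 4 was -0.07. Of 11 macrophage markers 1 was lower, Marco (-1.76). The other 10 had positive differences, of which none passed, and the median of the 11 was 0.29. Of 4 adipocyte markers 1 was higher, Cidea (3.18), while the other 3 had negative differences, the lowest at -0.18. The part of these genes was not tested. Without WT ND replicate 3 the median of the members was -0.13.

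**Figure D3:**
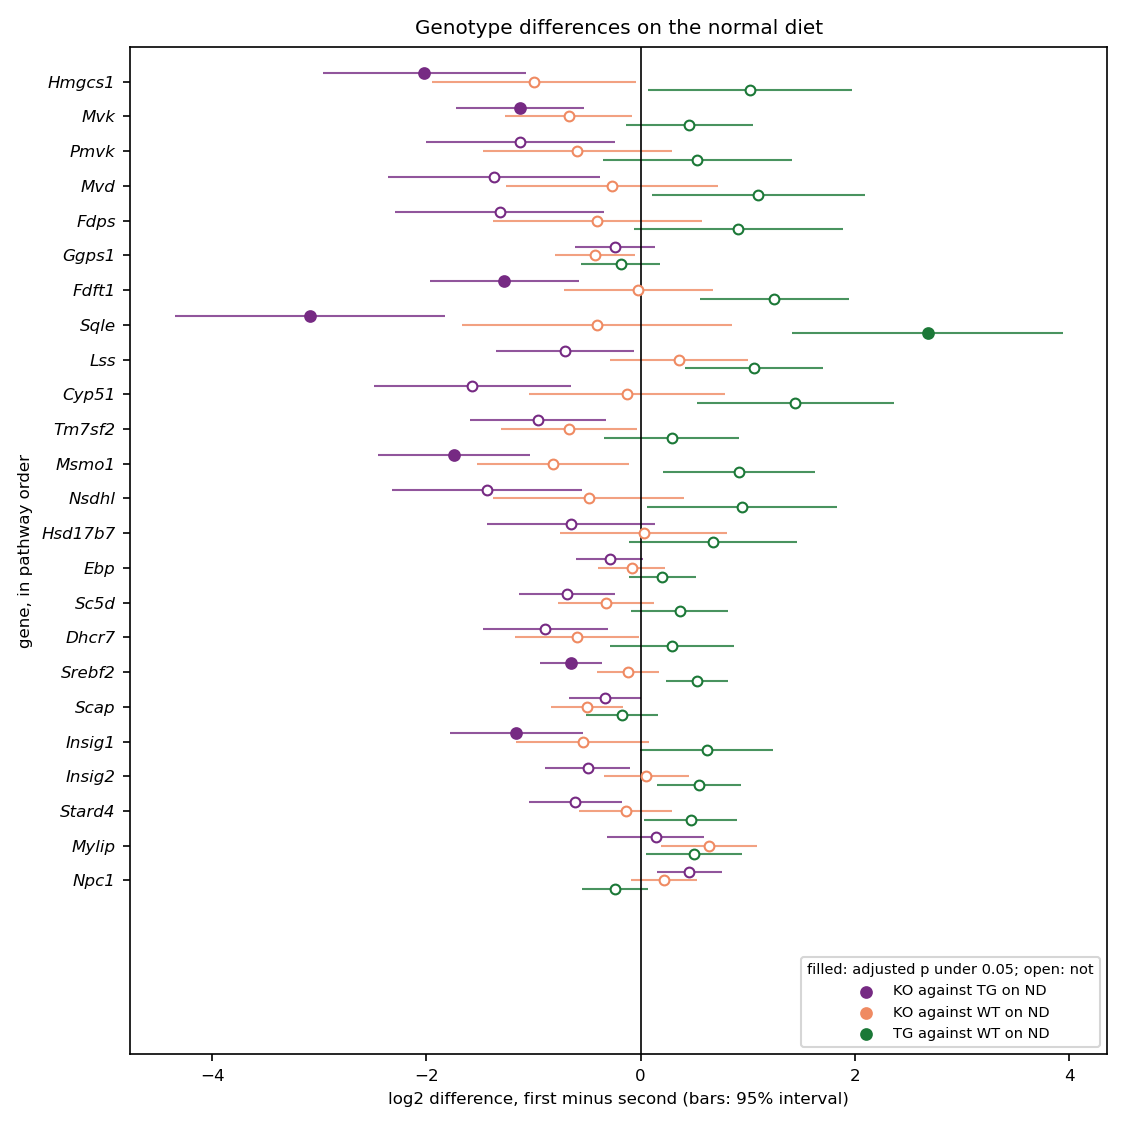
Log2 difference of each of 24 members on ND for KO minus TG, KO minus WT and TG minus WT, with 95% intervals; filled points passed the test. The KO minus TG points are negative for 22 of 24 members, and 7 of them are filled; the 3 comparisons share livers.

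On the high-fat diet Insig2 was called between genotypes and no enzyme was. None of the 17 enzymes passed in KO against TG, in KO against WT or in TG against WT by limma, and Insig2 was the 1 member that passed, in KO against TG and in TG against WT. At an unadjusted p under 0.05 KO against TG had 2 members lower and 1 higher (background 6.02% and 7.59%), KO against WT 2 and 1 (3.85% and 4.46%, 8.32% in either direction), and TG against WT 3 and 1 (7.99% and 7.19%). At adjusted p under 0.05 the shares of all genes were 2.35%, 0.338% and 3.57%. The 1 member called in KO against TG and in TG against WT makes a share of 4.17% of the 24, near the shares of all genes there. Those counts are therefore no result about the members as a set. The medians of the 24 differences were -0.07, -0.24 and -0.14, and each depended on single livers. With 1 liver left out the median lay between -0.20 (without KO HFD replicate 2) and 0.14 (without TG HFD replicate 3) in KO against TG, and between -0.44 (without TG HFD replicate 3) and 0.03 (without WT HFD replicate 3) in TG against WT. In KO against WT it lay between -0.32 (without KO HFD replicate 2) and -0.04 (without WT HFD replicate 3). It was -0.07 without KO HFD replicate 3. In KO against WT on HFD the livers did not overlap for 3 members that were lower and 2 that were higher (background 6.56% and 6.6%).

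On HFD, Sqle had 4.23, 4.13 and 3.02 in KO HFD livers, against 5.18, 4.79, 7.34 and 5.31 in TG HFD livers, and 4.79, 5.33 and 6.69 in WT HFD livers. Every KO HFD liver was below every other HFD liver, but the differences did not pass: -1.86 against TG (SE 0.56, adjusted p = 0.0989) and -1.81 against WT (SE 0.60, adjusted p = 0.328). The intervals, -3.04 to -0.68 and -3.07 to -0.55 (95%), are not adjusted for the number of genes.

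Insig2 was the member with the most calls. TG livers on HFD had 6.85, 6.92, 7.15 and 6.66, and all 15 other livers lay between 7.19 and 8.16. It fell in TG HFD against TG ND by 1.10 (SE 0.17, adjusted p = 0.00311), where TG ND livers had 8.07, 7.76 and 8.16. It fell in TG against WT on HFD by 0.75 (SE 0.17, adjusted p = 0.0209), where WT HFD livers had 7.86, 7.30 and 7.78. KO HFD livers, at 7.24, 7.75 and 7.83, were higher than TG HFD livers by 0.71 (SE 0.17, adjusted p = 0.0397). These 3 comparisons share the TG HFD livers and are not independent of each other. Insig1, which like Insig2 holds SCAP in the endoplasmic reticulum, had 8.95, 9.15, 10.44 and 9.38 in TG HFD livers, against 9.94, 9.86 and 9.92 in WT HFD livers, and did not pass (-0.42, SE 0.28, adjusted p = 0.525).

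The fall of Insig2 with diet in TG kept its call without any 1 of the 7 livers (highest adjusted p 0.0264), and lost it with the clock score as a covariate (-0.99, adjusted p = 0.975), a score that was 1.40 to 2.27 in TG HFD livers, against -1.82 to -1.26 in TG ND livers. On HFD the score ranges of TG (1.40 to 2.27) and WT (1.94 to 2.15) overlapped, and there the difference in Insig2 was -0.76 with the covariate (adjusted p = 0.0311). That call was lost without WT HFD replicates 1 or 3 or TG HFD replicates 1 or 4 (highest adjusted p 0.116), and the call against KO without 5 of 7 livers, KO HFD replicates 2 and 3 and TG HFD replicates 1, 2 and 4 (highest 0.182). Without TG HFD replicate 3 the number of members called in TG against WT on HFD was 3. Macrophage markers were 11 of 11 higher in TG against WT on HFD, at a mean of 5.90 to 6.40 in TG HFD livers, against 4.42 to 4.83 in WT HFD livers. In KO against TG on HFD 4 of the 11 were lower and none higher, and 8 were lower without overlap (background 5.35%). Their mean was 4.80 to 5.39 in KO HFD livers. Of 4 B and plasma cell markers 1 was lower in that comparison, Jchain (-1.19), while 2 had positive differences, the highest at 0.21. The part of these markers was not tested.

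The question of diet was asked within each genotype. HFD against ND in KO gave no call among the 24 members in limma (background 0.803%), with 6 higher and none lower at an unadjusted p under 0.05 (6.59% and 4.76%), 5 higher without overlap (9.22%) and a median difference of 0.46. HFD against ND in WT gave no call either (background 1.32%), with 6 higher and 1 lower (5.81% and 5.39%), 7 higher and 2 lower without overlap (7.73% and 7.4%) and a median of 0.49, which was 0.32 without WT ND replicate 1 and 0.28 without WT HFD replicate 3. In TG, 1 of 24 fell, Insig2, and none rose (background 0.906% in either direction, 0.509% as lower and 0.397% as higher), with 5 lower and 1 higher at an unadjusted p under 0.05 (5.7% and 4.37%), 2 lower and none higher without overlap (9.49% in either direction) and a median of -0.42. The count was 2 without TG HFD replicate 2 and 2 without TG HFD replicate 3, and without replicate 3 the median was -0.77. Over all genes the median difference was 0.00 in each. Clock genes also moved with diet: 6 of 8 evening genes rose in WT and 7 of 8 in TG, and none in KO. With the clock score as a covariate 11 of the 24 differences had the opposite sign in WT, 3 in KO and 2 in TG. Of the 6 fasting genes 2 fell and none rose in KO, 2 rose and none fell in WT, and 1 rose and none fell in TG. The shares of all genes that passed were 0.803%, 1.32% and 0.906%. Of 11 macrophage markers 1 fell in WT, while 8 had positive differences there. Of 6 stellate cell markers 1 rose in KO. The part of these genes and of the clock genes was not tested.

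In KO, the enzymes Hmgcs1 (1.01, adjusted p = 0.405), Sc5d, lathosterol oxidase (0.72, adjusted p = 0.143), and Dhcr7, the last step of one branch (0.72, adjusted p = 0.301), were higher on HFD without overlap, as were Insig1 (0.93, adjusted p = 0.178) and Stard4 (0.47, adjusted p = 0.404). None of these passed. In WT, Lss had 5.58, 5.64 and 6.42 in HFD livers, against 4.68, 4.79 and 5.06 in ND livers (1.03, SE 0.31, adjusted p = 0.134). Its WT groups were separated by more than 0.5. Ggps1, on the side branch to geranylgeranyl diphosphate, went the other way, with 3.82, 4.06 and 4.30 in WT HFD livers, against 4.77, 4.62 and 4.76 in WT ND livers (-0.66, SE 0.18, adjusted p = 0.0875). In TG, Hmgcs1 had 7.96, 7.17, 9.72 and 8.54 in HFD livers, against 9.92, 9.89 and 9.48 in ND livers (-1.42, SE 0.42, adjusted p = 0.159), and replicate 3 of TG HFD overlapped the ND livers.

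The diet effect in TG minus that in WT was tested as an interaction. It passed for 1 of 24 members, Insig2 (-1.30, SE 0.26, adjusted p = 0.0434; background 0.221%), whose level was 6.90 in TG HFD and 8.00 in TG ND, and 7.65 in WT HFD and 7.45 in WT ND. The call was lost without 10 of the 13 livers, all but WT HFD replicate 2, TG ND replicate 2 and TG HFD replicate 3 (highest adjusted p 0.134, without WT HFD replicate 1). For 12 of 24 members the interaction was negative at an unadjusted p under 0.05 (background 4.34%), and the median was -0.92. Most enzymes moved together from liver to liver, as given below, so that these 12 are not separate observations. Hmgcs1 (-2.27, SE 0.62, adjusted p = 0.234) and Sqle (-2.63, SE 0.82, adjusted p = 0.366) followed Insig2 and did not pass. The diet effect in KO minus that in WT gave no call in limma (background 0.825%), with 1 member higher at an unadjusted p under 0.05 (5.88%) and none lower, and a median of 0.02, which lay between -0.12 (without WT ND replicate 3) and 0.21 (without KO HFD replicate 3) with 1 liver left out.

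**Figure D4:**
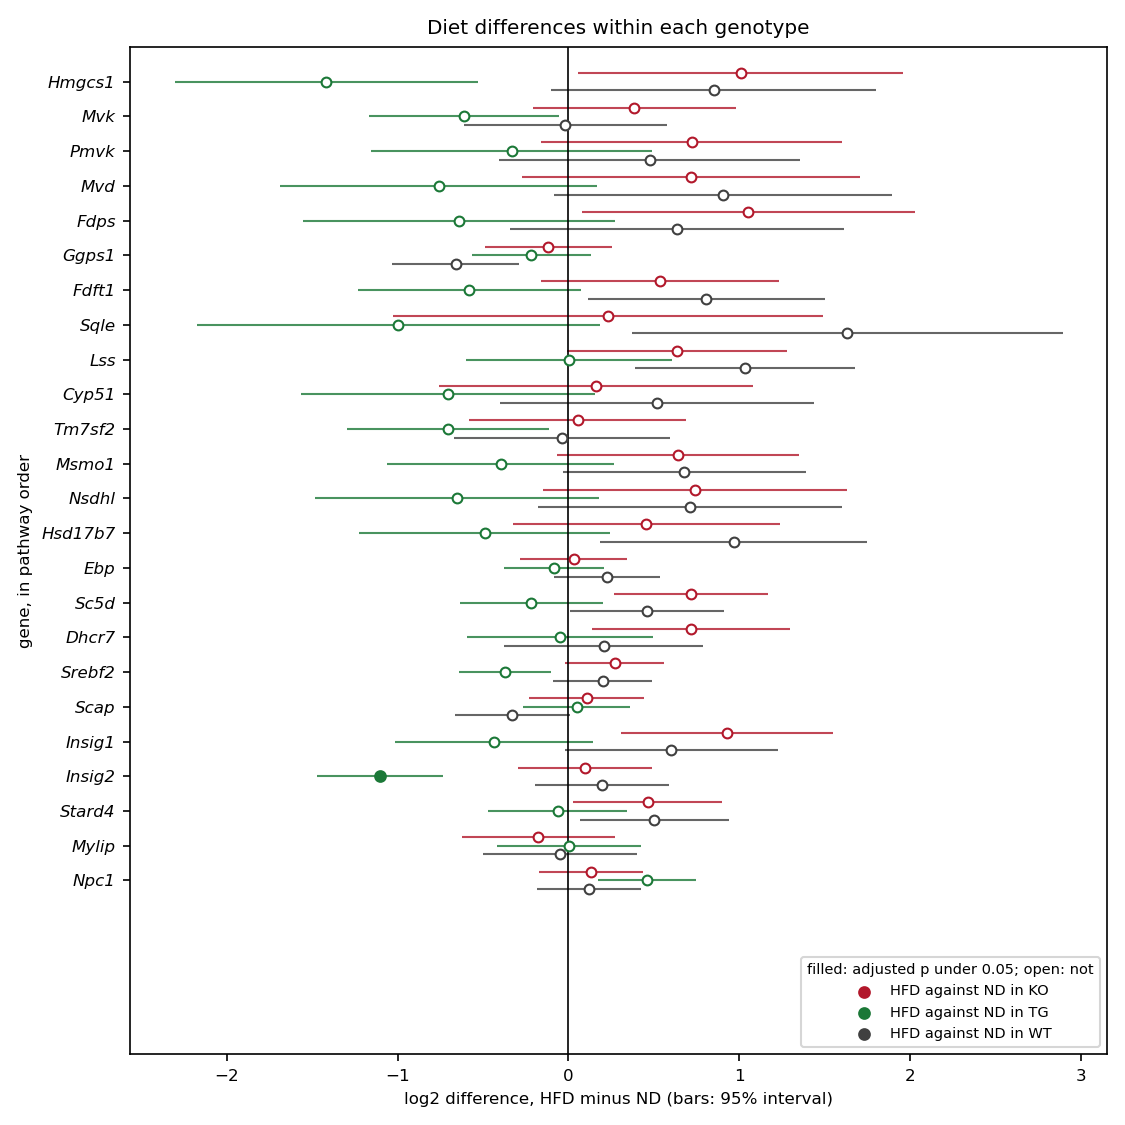
Log2 difference, HFD minus ND, of each of 24 members in KO, TG and WT livers, with 95% intervals; the filled point, Insig2 in TG, passed the test. KO and WT points lie mostly right of 0 (22 and 19 of 24) and TG points mostly left (20 of 24).

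In every group but KO ND, at least 14 of 17 enzymes had their highest or their lowest level in the same liver, while in KO ND at most 9 did. Members counted in any comparison are thus not separate observations, and the counts rest on the same few livers. TG HFD replicate 3 was the highest of its 4 livers for 16 of 17 enzymes and the highest of all 19 livers for 11, with a mean of centred levels of 0.99, against -0.49 to -0.05 in the other 3 livers of the group. WT HFD replicate 3 was the highest of its group for 16 of 17 enzymes, KO HFD replicate 3 the lowest for 16, and TG ND replicate 3 the lowest for 16. The mean of the 9 lipogenic genes in TG HFD livers was also highest in replicate 3, at 9.57, against 7.60 to 8.37 in the others, and in KO HFD livers lowest in replicate 3, at 8.42, against 9.21 and 9.68. KO ND livers were the most alike, with an SD of the enzyme mean of 0.10, against 0.27 in TG ND, 0.35 in WT ND, and 0.43 to 0.65 in the HFD groups.

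**Figure D5:**
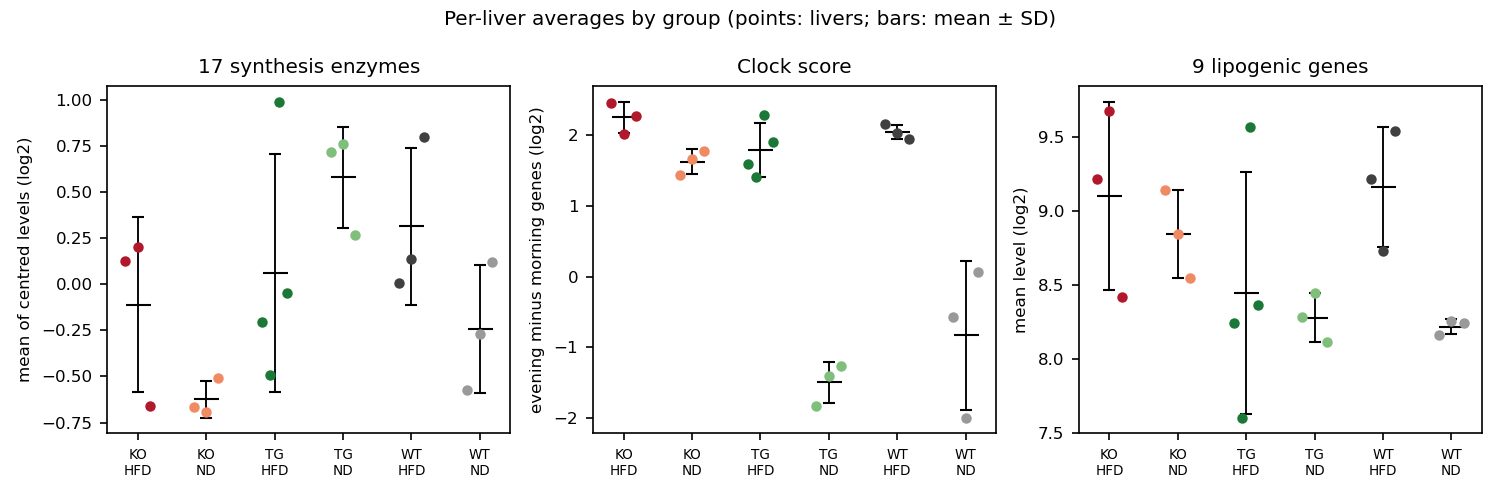
Per-liver mean of 17 centred enzyme levels, clock score and mean of 9 lipogenic genes (all log2) by group; points are livers and bars the group mean and SD. On ND the enzyme mean of KO lies below that of TG while its clock score lies above, and on HFD the clock scores of all 3 genotypes lie between 1.40 and 2.45.

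The members that handle cholesterol did not follow the enzymes as a group. Stard4, a sterol carrier protein and SREBP2 target, was lowest in KO ND, at 5.06, 4.90 and 5.25, against 5.46, 5.90 and 5.66 in TG ND livers (-0.61, SE 0.21, adjusted p = 0.129), and its livers did not overlap. Npc1, which releases cholesterol from lysosomes, ran the other way, with 8.07, 7.94 and 8.15 in KO ND livers, against 7.58, 7.44 and 7.77 in TG ND livers (0.46, SE 0.15, adjusted p = 0.0963). Mylip, a ubiquitin ligase that targets lipoprotein receptors and is induced by the sterol sensor LXR, had its highest group mean in KO ND and its lowest in WT HFD. Its levels were 5.20, 5.17 and 5.41 in KO ND livers, against 4.14, 4.95 and 4.76 in WT ND livers (0.64, SE 0.21, adjusted p = 0.138). None of these 3 genes passed in any of the 11 comparisons.

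Of 17 other genes of SREBP processing and isoprenoid or sterol metabolism, 13 were measured, and 2 of them, Aacs and Pdss2, passed in any comparison. Srebf1, which encodes the related SREBP1, was at 7.53 ± 0.24 in KO HFD and 6.47 ± 0.32 in KO ND livers (1.06, SE 0.30, adjusted p = 0.117), and at 7.55 ± 0.24 in WT HFD and 6.66 ± 0.70 in WT ND livers (0.89, SE 0.30, adjusted p = 0.205). Aacs, which activates acetoacetate for lipid synthesis, had 7.43, 6.97 and 6.46 in KO ND livers, against 3.71, 3.90 and 4.71 in WT ND livers, and rose by 2.85 (adjusted p = 0.00119), 1 of 13 in that comparison (7.69%, where 2.98% of all genes passed). It also rose in WT HFD, at 6.74, 6.46 and 7.53, against the same WT ND livers (2.81, adjusted p = 0.00243), again 1 of 13 (7.69%, against 1.32% of all genes). Both comparisons share the WT ND livers, which were the lowest of all for this gene, and the diet effect on it differed between KO and WT (-2.76, adjusted p = 0.0499). Pdss2, a subunit of the enzyme that makes the side chain of coenzyme Q, fell in TG against WT on HFD by 0.59 (adjusted p = 0.0174), 1 of 13 (3.57% of all genes). In KO against TG on ND none of the 13 passed in limma, with 1 higher and 1 lower at an unadjusted p under 0.05.

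Of 10 genes of LXR signalling and cholesterol export and uptake 9 were measured. Abcg1, a sterol exporter abundant in macrophages, had 4.23, 4.23 and 4.33 in TG ND livers, against 2.24, 2.88 and 2.78 in WT ND livers, and rose by 1.63 (adjusted p = 0.000353); the lysosomal carrier Npc2 rose by 0.57 (adjusted p = 0.0335). Those were 2 of 9 genes (22.2%, where 1.3% of all genes passed), beside macrophage markers that were 11 of 11 higher, and their part was not tested. The lipoprotein receptor Scarb1 fell in KO ND livers by 0.63 against TG ND (adjusted p = 0.00744) and by 0.49 against WT ND (adjusted p = 0.0444). In KO against TG on ND 2 of the 9 genes fell (4.2% of all genes passed), and in KO against WT on ND 1 did (2.98%). Abcg1 had the lowest difference of the 9 in KO against TG on ND, at -1.25. On HFD 1 of the 9 rose in TG against WT (3.57% of all genes passed), where Abcg1 had the highest difference, at 0.88. Of the 9 lipogenic genes 2 rose in WT HFD against WT ND (1.32% of all genes passed). They were Fads1 (0.85, adjusted p = 0.0373) and Fads2 (1.23, adjusted p = 0.0243), desaturases of polyunsaturated fatty acids. Scd1 fell in TG against WT on HFD by 1.08 (adjusted p = 0.0361), 1 of 9 (3.57% of all genes). In KO against TG on HFD 1 of the 9 lipogenic genes was called as higher (2.35% of all genes passed). All 9 differences were positive there, with a median of 0.50.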

How the data were processed

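RNA of 19 whole livers was measured on 1-colour Affymetrix arrays, without read depth, so that the number of animals limits precision. The deposited log2 values per probe set had been normalized between arrays by the authors (array medians 0.983 to 1.075); per the submitters' processing notes affy, RMA and limma were used, with no version or role, and the log base and RMA are inferred. GEO's platform annotation gave 1 symbol for 23521 probe sets, several for 1814 and none here for 16010; 23328 matched RefSeq GRCm38.p6 by Entrez identifier. The probe set with the highest mean stood for each of 22180 genes, with no filter on dim genes.

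All arrays entered 1 model of 6 group means (limma 3.58.1, R 4.3.3, lmFit and eBayes, two-sided, 13 residual and 4.76 prior degrees of freedom). It gave 9 comparisons and 2 interactions, with Benjamini-Hochberg adjusted p-values over all genes in each; SE are moderated, and SD are between livers of a group. The procedure was tested on simulated data. The members and lists were chosen with earlier results of these data known. All 27 members are named; of other lists, counts and up to 4 called genes per comparison, Kcp and Srebf1. The clock score uses Per3, Ciart, Dbp, Nr1d1, Nr1d2, Tef, Usp2 and Wee1 minus Arntl, Npas2, Clock, Cry1 and Nfil3. Alternatives covered probe sets, filter, normalization, arrays fitted, weights, prior, clock score, features tested and arrays left out.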

Additional observations from a re-analysis of the deposited data

Results flagged for a closer look

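Ggps1 in TG HFD replicate 2, at 4.77, stood apart from the other 3 livers of its group, which lay between 4.10 and 4.20. It was the 1 such value among 24 members tested in the group of 4 livers, where chance flags about 1 in 20 groups, and the neutrophil markers averaged 2.20 in the same liver; their part was not tested.

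The diet effect on Insig2 differed between TG and WT livers by -1.30 on the log2 scale (adjusted p = 0.0434).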

How the results depend on the processing

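No paired analysis was possible because the titles give each animal its own number and no number is shared between groups. With genes of a mean under 2 left out, the number of members called became 1 for HFD against ND in WT (none before), 2 for TG against WT on ND (1 before) and 11 for KO against TG on ND (7 before). With the compared arrays alone it became 13 for KO against TG on ND, 2 for TG against WT on ND, and 0 for TG against WT on HFD, KO against TG on HFD and the TG interaction, each 1 before. Array weights gave 2 for TG against WT on ND and 0 for the TG interaction. With the clock score as a covariate it was 0 for KO against TG on ND, HFD against ND in TG, KO against TG on HFD and the TG interaction. With all probe sets tested it was 4 for KO against TG on ND and 0 for TG against WT on ND, KO against TG on HFD and the TG interaction. Without WT HFD replicate 1 and TG HFD replicate 2 together it was 2 for HFD against ND in TG and 0 for TG against WT on HFD, KO against TG on HFD and the TG interaction. Leaving out 1 liver at a time gave 2 to 6 for KO against TG on ND, 0 to 1 for TG against WT on ND and KO against TG on HFD, 0 to 3 for TG against WT on HFD, 1 to 2 for HFD against ND in TG and 0 to 2 for the TG interaction. It gave 0 throughout for HFD against ND in WT and in KO, KO against WT on both diets and the KO interaction. No called difference changed sign under any alternative. Differences that were not called did: with the clock score as a covariate 11 members had the opposite sign in HFD against ND in WT, and 3 in KO. The mean of a gene's probe sets, both further normalizations and the trended prior moved no count by over 1.5 times, but under that prior the 1 member called in TG against WT on ND was not Sqle, and KO against TG on ND had 6 calls, 5 of them among the 7, without Fdft1 and Insig1. Medians of the members with each liver left out were computed after seeing the data. Causes were not tested. The dimmest member, Mvd, averaged 3.98, while 56.5% of all genes averaged under 2.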
